A study of Mus musculus with 10 samples.

Results

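The alpha-globin cluster and its distant enhancers were described through 6 genes, Nprl3, Hba-x, Hba-a1, Hba-a2, Hbq1a and Hbq1b, and through the open chromatin around them. All ATAC-seq summits from 50 kb left to 50 kb right of the joint span of these genes were taken, which is chr11:32175628-32350873 of the mouse build mm10 (175.2 kb). These summits formed 18 regions of the 28981 found in the series, or 81 summits of 146939. A region is a set of summits whose surroundings, 250 bp on each side, overlapped among the 10 libraries.

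ATAC-seq, which marks accessible DNA by insertion of adaptors with the Tn5 transposase, was applied to G1E-ER4 cells, a mouse erythroid line derived from embryonic stem cells that lack Gata1. The line carries an added GATA1 linked to the hormone-binding part of the estrogen receptor, which becomes active in β-estradiol, and all groups share the Gata1 deletion and this transgene. Cells were untreated (0 h) or grown in β-estradiol at 1e-07 M for 2, 6, 12 or 24 h, with 2 libraries per group from about 50000 cells each. The study describes the libraries of a group as independent experiments. All of them come from 1 cell line, and the labels name no separate cultures, so p-values measure only the spread between these libraries.

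Haemoglobin is built from alpha-like and beta-like chains that bind haem. In the alpha cluster Hba-x encodes the embryonic zeta chain, Hba-a1 and Hba-a2 encode the alpha chains of fetal and adult red cells, and Hbq1a and Hbq1b are theta-like genes of uncertain function. Nprl3, a broadly expressed gene for a subunit of the GATOR1 complex that restrains mTORC1, lies beside them and carries most of the erythroid enhancers of the cluster in its introns. These elements are named by their distance upstream of Hba-x or, from the far to the near end, R1, R2, R3, Rm and R4. They are bound in red cell precursors by GATA1 and by complexes of TAL1, LMO2 and LDB1, and R1 and R2 carry most of their activity in mice that lack single elements.

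The regions at the places of R1, R2 and R3 are shown because they include the most regular region of Nprl3 and the ones that appeared or disappeared between groups. The names were matched here by order and distance, since the peak lists carry no element names. An exon here is one of any annotated transcript of the gene, coding or not. Each stretch holds 160 bases around the median summit on the plus strand of mm10, and the capitals mark the letters AGATAA or their complement, the core that GATA factors bind. The stretches lie at chr11:32245729-32245888, chr11:32250994-32251153 and chr11:32256255-32256414.
30.6 kb upstream of Hba-x (R1 place, intron of Nprl3): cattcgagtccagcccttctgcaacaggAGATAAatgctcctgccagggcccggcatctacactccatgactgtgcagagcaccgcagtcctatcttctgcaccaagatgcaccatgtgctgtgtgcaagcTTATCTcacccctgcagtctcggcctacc
25.3 kb upstream of Hba-x (R2 place, intron of Nprl3): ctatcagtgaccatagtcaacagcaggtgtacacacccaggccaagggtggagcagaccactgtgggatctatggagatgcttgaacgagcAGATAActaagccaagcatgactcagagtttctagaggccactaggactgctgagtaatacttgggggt
20.1 kb upstream of Hba-x (R3 place, exon of Nprl3): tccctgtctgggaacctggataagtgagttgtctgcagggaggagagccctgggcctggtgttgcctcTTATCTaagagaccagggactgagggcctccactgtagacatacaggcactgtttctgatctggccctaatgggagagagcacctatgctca

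Motif letters were searched on both strands in the 200 bp centred on each median summit. AGATAA or TGATAA stood in 6 of the 18 regions (33.3%), against 27.9% of all 28981 regions. The composite that GATA1 and TAL1 occupy together, CTG, then 7 or 8 bases, then AGATAA or TGATAA, stood in 2 of the 18 (11.1%), against 5.27% of all regions, and each such match contains a GATA match. Those were the region 30.6 kb upstream, which held 2 of them on opposite strands, and the region 20.1 kb upstream, which held 1. The first composite of the 30.6 kb region ran over chr11:32245747-32245762 on the plus strand, the second over chr11:32245860-32245876 on the minus strand, and that of the 20.1 kb region over chr11:32256323-32256338 on the minus strand. CACCC, the core bound by KLF1, stood in 11 of 18 regions (61.1% against 45% of all).

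TGACTCA or TGAGTCA, the core bound by NF-E2 and AP-1, stood in 2 of the 18 regions (11.1% against 5.18%), at 25.3 and 11.2 kb upstream. The region 25.3 kb upstream held this core 33 bases and a GATA core 15 bases to the right of its median summit, and it held no composite. A CTCF consensus stood in 1 region, 37.7 kb upstream in an intron of Nprl3 (5.56% against 7.52% of all). With windows of 100 bp the GATA letters remained in 3 of 18 regions (16.7% against 17.1%), and the 30.6 kb region held none.

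**Figure D1:**
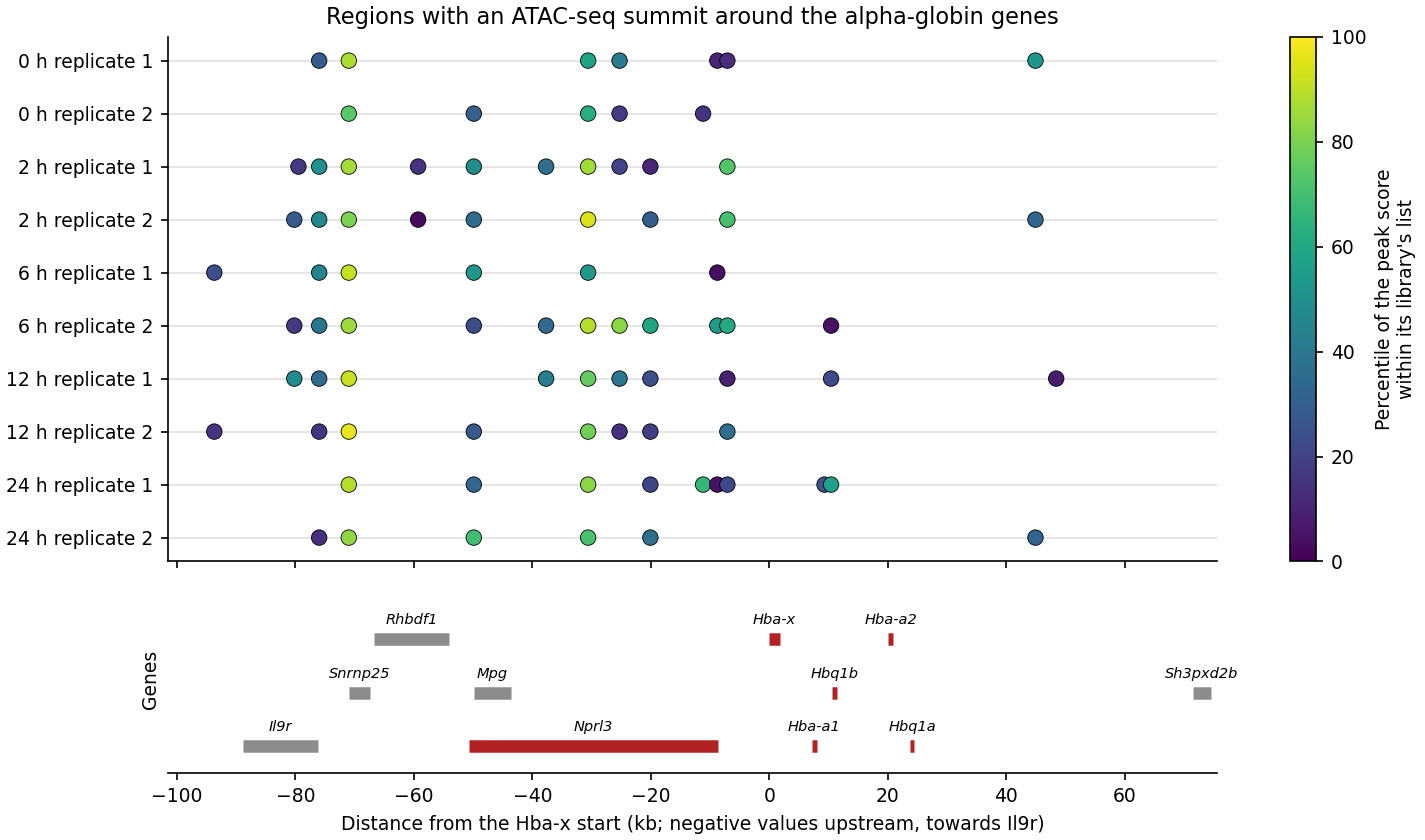
Regions with a summit in each of the 10 libraries (rows) against the distance from the Hba-x start in kb, with genes below (cluster members in red, neighbours in grey). The colour is the percentile of the peak score within its library's list, and the columns at 71.0 and 30.6 kb upstream are filled in all 10 libraries, while Hba-x, Hba-a1, Hba-a2 and Hbq1a have no summit above them.

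Of the 18 regions, 14 lay upstream of Hba-x and 4 downstream of it, and 5 lay within 1 kb of the start of a protein-coding gene. The region at the promoter of Snrnp25, 71.0 kb upstream, and the intronic region 30.6 kb upstream were present in all 10 libraries, which is 11.1% of the regions against 21.5% of all regions. Another 3 regions (16.7% against 28.9%) were seen in 1 library. Within Nprl3 and the gap to Hba-x, the plot of regions by library shows the places of R1, R2, R3, Rm and R4 at 30.6, 25.3, 20.1, 11.2 and 7.1 kb upstream, with summits in 10, 6, 7, 2 and 7 libraries.

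The peak score in the lists is the −log10 q-value of each peak in its own library, and it is not scaled between libraries, so its percentile within its list was compared, where 100 is the highest. The number of peaks per list ran from 10698 (24 h replicate 2) to 19859 (6 h replicate 2), and the sequencing depth is unknown. In every group replicate 2 had the higher median score, 6.73 to 7.68 against 5.68 to 6.48 in replicate 1. Of 9 erythroid marker genes, 3 had a summit within 1 kb of a start in all 10 libraries (Epor, Zfpm1 and Tfrc), and Gata2 and Slc4a1 had none in any. Klf1 had one in 4 libraries, Tal1 in 2, and Gata1 and Hbb-bs in 1 each. The share of all genes with a summit in every library is not given here, so these counts do not single out erythroid genes. Of 8 markers of other cell types, 7 had none in any library, and Spi1, a myeloid factor gene that is also active in early erythroid precursors, had a summit in 9 libraries.

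The region 30.6 kb upstream of Hba-x, at the place of R1, had a higher percentile than any of the other 12 regions away from a promoter in all 10 libraries. Its percentile was 58.3 and 62.7 before treatment, 86.2 and 94.3 after 2 h, 54.1 and 88.9 after 6 h, 75.8 and 78.5 after 12 h, and 82.5 and 71.3 after 24 h. Both 2 h, both 12 h and both 24 h libraries ranked above both 0 h libraries, and the 6 h pair spanned them. On normal scores, which are ranks among the 6234 regions present in all 10 libraries turned into normal quantiles, the mean was -0.46 at 0 h and 0.78 after 2 h. The difference of 1.24 ± 0.56 (SE, n = 2 per group) did not pass the threshold in limma (adjusted p = 1). At 6, 12 and 24 h the differences from 0 h were 0.29, 0.51 and 0.63, each with an SE of 0.56, and the limma adjusted p was 0.999 or 1.

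The Snrnp25 promoter, which belongs to a broadly expressed gene for a splicing protein, served as the other region present throughout. Its percentile was 87.4 and 74 before treatment, 86.6 and 80.3 after 2 h, 91.2 and 85.2 after 6 h, 91.6 and 96.2 after 12 h, and 88.9 and 83.4 after 24 h. Only the 12 h pair lay wholly above the 0 h pair. Within each replicate number the percentile was above that of 0 h also after 6 and 24 h, and after 2 h it was above it in replicate 2 alone. Its normal score at 12 h was 0.76 ± 0.53 (SE) above 0 h, with a limma adjusted p of 0.999.

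Across all 6234 regions limma with Benjamini-Hochberg adjustment called 0 at each time point (0%). At an unadjusted p under 0.05 it gave 198 regions after 2 h, 173 after 6 h, 193 after 12 h and 260 after 24 h. With no change anywhere, a share of 0.05 of the 6234 regions would fall below it, and each count is smaller than that.

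Presence gave a second view, with a region called gained where it was in both libraries of a time point and in none at 0 h, and lost where the reverse held. With 2 libraries against 2 the smallest exact p is 0.333, so these calls have no test. In the window 2 regions were gained at 2 h, where 2.67% of all regions were. At 6 h 0 were gained (4.08% of all regions), after 12 h 1 (2.47%) and after 24 h 1 (1.71%). The lost regions were 0 after 2 h (1.15% of all), 0 after 6 h (0.759%), 0 after 12 h (1.88%) and 1 after 24 h (3.51%). All 4 time points share the same 0 h libraries. The rule is looser where 1 library of a group is left out, for all regions as for the window. The share of all regions under the looser rule was not computed. The counts that follow therefore cannot be read as particular to the window. Without 0 h replicate 1 the gained regions numbered 4 after 2 h, 2 after 6 h and 3 after 12 h, with 1 lost at each of these times. Without 0 h replicate 2 they numbered 1 after 6 h and 2 after 24 h, and 1, 1 and 2 were lost after 2, 6 and 12 h. Among later libraries, 4 were gained without 2 h replicate 2, 2 without 12 h replicate 1, 5 without 12 h replicate 2 and 3 without 24 h replicate 2, and 1 was lost without 2 h replicate 1.

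**Figure D2:**
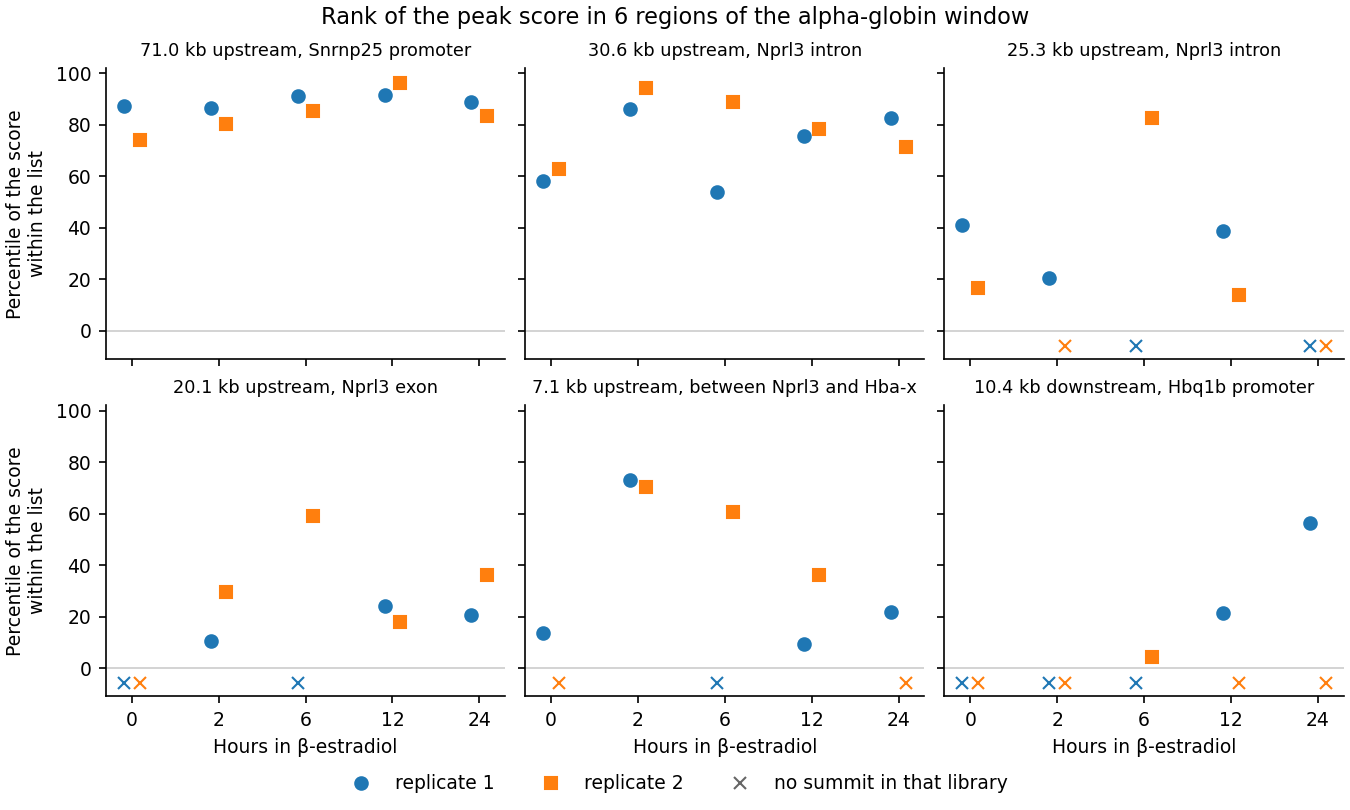
Percentile of the peak score within its list (y axis) against hours in β-estradiol for 6 regions of the window, with 1 symbol per library and crosses for libraries with no summit there. The region 20.1 kb upstream has crosses for both 0 h libraries and points in 7 of the 8 later ones, and the region 25.3 kb upstream has crosses for both 24 h libraries.

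The region 20.1 kb upstream, at the place of R3, had its median summit in an annotated exon of Nprl3. Whether that exon is coding was not examined. The region was absent from both 0 h libraries and present in 7 of the 8 later ones. Its percentile was 10.3 and 29.6 after 2 h, 58.9 in replicate 2 after 6 h with no summit in replicate 1, 23.9 and 17.8 after 12 h, and 20.5 and 36 after 24 h. It was therefore called gained at 2, 12 and 24 h, from peaks in the lower part of most lists. When every list was reduced to the 10698 best peaks, the size of the smallest, these calls did not stand. The share of libraries with the region then exceeded that before treatment by 0.5 after 2 h, 0 after 12 h and 0.5 after 24 h. With absent peaks set to the lowest score of their list, over the 13291 regions in at least 5 libraries, its normal score at 24 h was 1.02 ± 0.53 (SE) above 0 h, with a limma adjusted p of 0.747.

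The region 25.3 kb upstream, at the place of R2, changed the other way by presence. Its percentile was 41.2 and 16.7 before treatment, 20.5 in replicate 1 after 2 h, 82.5 in replicate 2 after 6 h, and 38.7 and 14 after 12 h, and neither 24 h library had a summit. The 2 h replicate 2 and 6 h replicate 1 libraries lacked it as well. The loss at 24 h stood with lists of equal size, with 100 or 500 bp around each summit and with scores of at least 3. In the fit over regions in at least 5 libraries its normal score after 24 h minus that at 0 h was -0.86 ± 0.58 (SE), with a limma adjusted p of 0.902.

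The 6 h replicate 2 library had the largest list and stood apart from its replicate at these elements. Of the 5 places from R1 to R4 it held 4, and 6 h replicate 1 held 1. The other libraries held 2 (24 h replicate 2), 3 (both 0 h libraries and 2 h replicate 2) or 4. The part of list size in the 6 h difference was not tested. The counts that follow use the looser rule and have no share of all regions beside them. Without 6 h replicate 1, 4 regions of the window were called gained at 6 h, and without 6 h replicate 2 1 was gained and 1 lost.

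The region 7.1 kb upstream, at the place of R4 and between Nprl3 and Hba-x, was present in 7 libraries. Its percentile was 13.6 in replicate 1 before treatment, 72.9 and 70.4 after 2 h, 60.6 in replicate 2 after 6 h, 9.23 and 36.2 after 12 h, and 21.9 in replicate 1 after 24 h. The 2 h pair stood above every other library. The region was in 1 of the 2 libraries at 0 h and so was not called by presence. In the fit over regions in at least 5 libraries its normal score at 2 h was 1.5 ± 0.52 (SE) above 0 h, which did not pass the threshold (limma adjusted p = 1). The region 11.2 kb upstream, at the place of Rm, appeared in 0 h replicate 2 at percentile 14.8 and in 24 h replicate 1 at 65.7, and in no other library.

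Among the other regions of Nprl3, the intronic region 37.7 kb upstream that held the CTCF consensus was present in 2 h replicate 1, 6 h replicate 2 and 12 h replicate 1, at percentiles of 36.3, 34.2 and 42.3. The region 49.9 kb upstream, where the 3′ end of Nprl3 overlaps the promoter of Mpg, a DNA repair glycosylase gene, was present in 8 libraries at percentiles of 23.4 to 69.2. The Nprl3 promoter had a summit in 4, namely 0 h replicate 1 (10.3), both 6 h libraries (3.81 and 54.9) and 24 h replicate 1 (4.03). Outside Nprl3, the start of Il9r, the interleukin 9 receptor gene, had a summit in 8 libraries, and those of Rhbdf1 and Sh3pxd2b had none. The region 59.3 kb upstream, in an exon of Rhbdf1, was the second region gained at 2 h, at percentiles of 15.1 and 2.99, and it was seen at no other time. This call did not stand with lists of equal size, where neither 2 h library kept the region, or with scores of at least 3, where 1 did. With lists of equal size the 2 regions gained at 2 h, of 13 in the window, were instead those 76.0 and 7.1 kb upstream. The region 25.3 kb upstream was lost. Of all 20279 regions in that setting, 442 were gained and 446 lost at 2 h.

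At the globin genes themselves, Hba-x, Hba-a1, Hba-a2 and Hbq1a had no summit within 1 kb of a start in any of the 10 libraries. Hbq1b had one in 3 of 10, all of them after β-estradiol: 6 h replicate 2 (percentile 4.44), 12 h replicate 1 (21.5) and 24 h replicate 1 (56.3). Each of these libraries was paired with a replicate that lacked the peak, so it was not called. A further summit lay 9.3 kb downstream of the Hba-x start in 24 h replicate 1 (26.1). Past the genes, regions 44.9 and 48.4 kb downstream were present in 3 libraries and 1.

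Only reads with a unique position were kept by the authors, and the cluster contains copies, so the share of 75-base stretches that occur once in the genome was computed within 500 bp of each start. It was 100% at Nprl3 and Hba-x, 78.4% at Hbq1a and 79.4% at Hbq1b. At Hba-a1 it was 17% and at Hba-a2 10.9%, against 96.1% over the whole window. Hba-a1 and Hba-a2 share an identical run of 1022 bp, at chr11:32283321-32284342 and chr11:32296138-32297159, 12.8 kb apart, which covers both starts. A read that falls wholly within such a run has no unique position, so accessibility over these runs could not be read from the lists. The Hba-x start was fully unique and still had no summit in any list.

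A stretch of 100 bases upstream of the Hba-a1 start (chr11:32283411-32283510) is printed because the same letters stand upstream of Hba-a2 (chr11:32296228-32296327). The capitals mark a TGATAA core.
Hba-a1 upstream: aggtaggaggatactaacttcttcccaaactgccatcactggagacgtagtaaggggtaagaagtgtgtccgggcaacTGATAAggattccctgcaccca
Hba-a2 upstream: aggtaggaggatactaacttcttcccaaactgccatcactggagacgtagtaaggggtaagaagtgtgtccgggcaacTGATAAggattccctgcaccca

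The starts of Hbq1b and Hbq1a, 13.1 kb apart, differ by 4 of 140 bases just upstream (97.1% identity), and the capitals mark the bases that differ. They are printed because the 3 summits at Hbq1b fell at positions 35, 33 and 23 of its stretch, counted from the first base, among these differences. The stretches lie at chr11:32286815-32286954 and chr11:32299920-32300059, and 92.8% of the 75-base stretches in the Hbq1b region were unique.
Hbq1b upstream: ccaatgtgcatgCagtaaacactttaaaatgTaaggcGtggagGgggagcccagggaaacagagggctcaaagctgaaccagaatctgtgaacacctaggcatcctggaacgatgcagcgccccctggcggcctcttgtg
Hbq1a upstream: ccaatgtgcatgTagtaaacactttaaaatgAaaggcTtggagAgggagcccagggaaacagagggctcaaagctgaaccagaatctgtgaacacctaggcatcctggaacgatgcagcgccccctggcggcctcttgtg

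**Figure D3:**
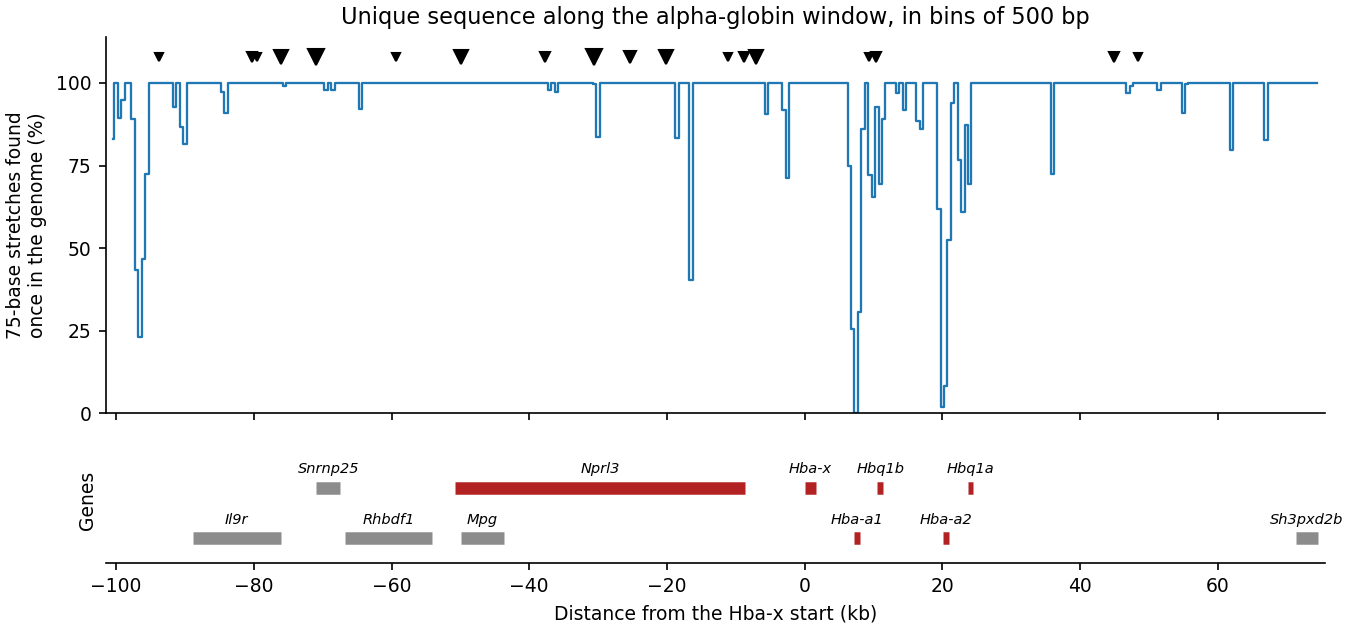
Share of 75-base stretches found once in the genome, in bins of 500 bp, against the distance from the Hba-x start in kb, with genes below and triangles for the 18 regions (larger for more libraries). The share falls to its lowest values at Hba-a1 and Hba-a2, while the regions in Nprl3 and the Hba-x start lie in mostly or fully unique sequence.

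The number of summits in the window was 7 and 5 before treatment, 10 and 9 after 2 h, 6 and 11 after 6 h, 10 and 8 after 12 h, and 9 and 6 after 24 h. Both 2 h and both 12 h libraries held more than either 0 h library, as far as 2 against 2 can show (exact permutation p = 0.333, two-sided, the smallest possible). Against hours the count had a Pearson r of 0.0193 (permutation p = 0.959) and a Spearman rho of 0.161 (permutation p = 0.662, n = 10 libraries). Without the 2 libraries of 24 h, the farthest in time, r was 0.357.

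Per 10000 peaks the window held 4.59 and 4.27 summits before treatment, 6.21 and 6.30 after 2 h, 4.22 and 5.54 after 6 h, 6.48 and 5.78 after 12 h, and 5.78 and 5.61 after 24 h. The 2, 12 and 24 h pairs lay above the 0 h pair, each with an exact permutation p of 0.333, and the 6 h pair overlapped it. Against hours r was 0.322 (permutation p = 0.366) and rho 0.295 (permutation p = 0.418), and r was 0.43 without the 24 h libraries. Among the 3 relations with hours that were computed the Benjamini-Hochberg adjusted p for r was 0.898 or more.

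**Figure D4:**
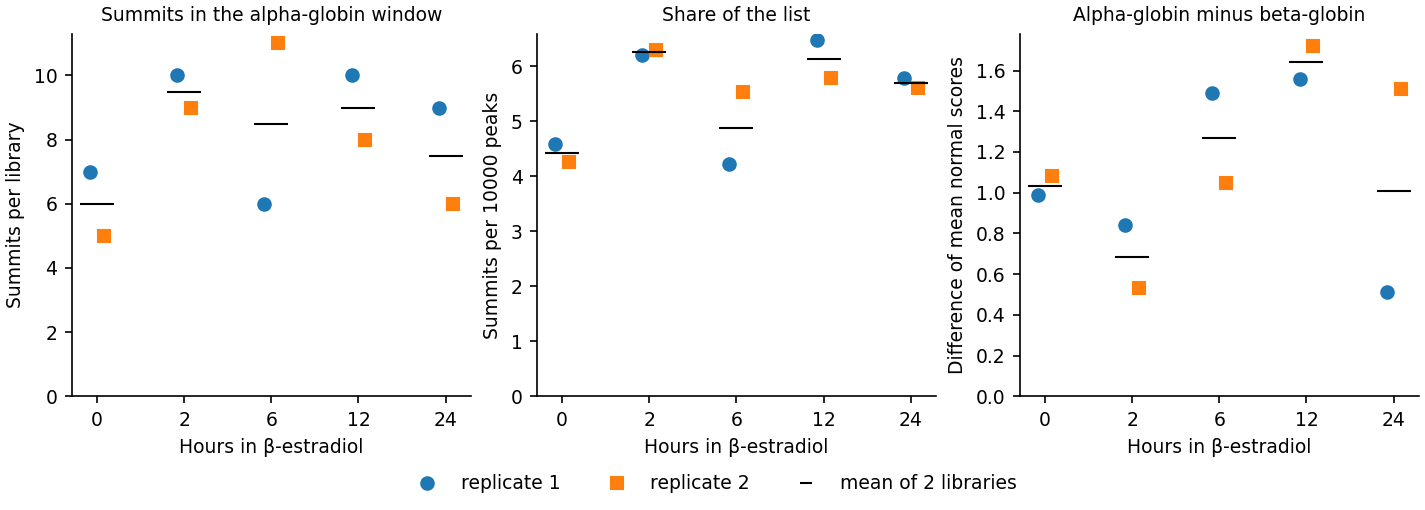
Summits in the window, summits per 10000 peaks, and the difference between the alpha-globin and beta-globin mean normal scores (y axes, all from 0) against hours in β-estradiol, with 1 point per library and a bar for the mean of 2. In the middle panel both 0 h libraries and 6 h replicate 1 are the lowest, and the 24 h replicates are far apart in the right panel, at 0.51 and 1.51.

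The beta-globin cluster on chromosome 7, which supplies the other chains of haemoglobin from Hbb-y, Hbb-bh1, Hbb-bh2, Hbb-bs and Hbb-bt, was read in the same way as the nearest counterpart. Its window held 9 regions, 1 of them in all 10 libraries, 7.9 kb upstream of Hbb-y where the locus control region lies. None of its 9 regions was gained at any time point, and 1, 1, 2 and 2 were lost at 2, 6, 12 and 24 h. In the alpha-globin window 2, 0, 1 and 1 of 18 were gained and 0, 0, 0 and 1 lost. Of all regions 2.67, 4.08, 2.47 and 1.71% were gained and 1.15, 0.759, 1.88 and 3.51% lost. Only the beta-globin regions 43.6 kb downstream and 24.1 kb upstream of Hbb-y were lost, each at several time points against the same 0 h libraries. These counts have no test and do not set the 2 clusters apart. AGATAA or TGATAA stood in 8 of the 9 beta-globin regions (27.9% of all regions), and the GATA and TAL1 composite in 4 (5.27% of all). With windows of 100 bp they stood in 5 (17.1% of all) and 2 (2.82% of all). Of the beta-globin starts only that of Hbb-bs had a summit, in 24 h replicate 1.

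The mean normal score of the alpha-globin regions present in all libraries, which are the 30.6 kb region and the Snrnp25 promoter, minus that of the beta-globin region was 0.99 and 1.08 before treatment, 0.84 and 0.53 after 2 h, 1.49 and 1.05 after 6 h, 1.56 and 1.72 after 12 h, and 0.51 and 1.51 after 24 h. It was positive in all 10 libraries. The 12 h pair lay above and the 2 h pair below the 0 h pair, each with an exact permutation p of 0.333. The alpha-globin mean itself was -0.07 and -0.04 before treatment and 0.44 and 0.66 after 2 h. The beta-globin score was -1.06 and -1.13 before treatment and -0.41 and 0.14 after 2 h. Both 2 h pairs thus lay above their 0 h pairs, and within each replicate number the beta-globin score rose by more. The alpha-globin mean includes the Snrnp25 promoter, and the beta-globin score comes from 1 region. The cause of the lower difference at 2 h was not tested. Against the beta-globin score the 2 alpha-globin regions differed at 2 h. For the Snrnp25 promoter alone the difference was 1.61 and 1.28 before treatment and 0.86 and 0.06 after 2 h. For the 30.6 kb region alone it was 0.36 and 0.89 before treatment and 0.83 and 0.99 after 2 h. At 12 h both lay above their 0 h pairs, with 1.99 and 2.35 for the promoter and 1.12 and 1.1 for the 30.6 kb region. Against hours r was 0.185 (permutation p = 0.598) and rho 0.295 (permutation p = 0.417), and with hours permuted within replicate numbers p was 0.616. The value of r depended on single libraries. With 1 library left out at a time it ran from 0.00477 (without 24 h replicate 2) to 0.688 (without 24 h replicate 1). Without both 24 h libraries r was 0.8. The beta-globin score was -0.07 in 24 h replicate 1 and -1.17 in 24 h replicate 2. The alpha-globin means of these libraries were closer, at 0.45 and 0.34.

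Other genes of haemoglobin synthesis and of the control of the cluster were read by summits within 1 kb of a start. Of 7 genes for haem synthesis, 3 had a summit in all 10 libraries (Uros, Cpox and Ppox), and Alas2, the erythroid enzyme of the first step, had none. Alad, the enzyme of the second step, was present in 7 libraries and was the 1 of these 7 genes lost at 24 h, where 0.541% of all 21829 protein-coding genes lost their summit. Of 10 regulator genes, Nfe2, Zfpm1 (the GATA1 cofactor FOG1) and Ctcf had a summit in all 10 libraries. Klf1 had one in 4 libraries, Tal1 in 2 and Gata1 in 1, and Atrx, a chromatin remodeller gene whose loss lowers alpha-globin in humans, was the 1 of these 10 genes gained at 24 h, where 0.444% of all genes were. It also had a summit in 2 h replicate 1 and 6 h replicate 2.

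The 3 regions outside the window whose normal scores over the 10 libraries were most like the mean of the 30.6 and 71.0 kb regions lay near Arpc1a (chr5:145098118-145098700, 14.3 kb from its start), at Ankrd16 (chr2:11777229-11778848) and at Aaed1 (chr13:64312107-64313043), each with a Pearson r of 0.87. They are the highest of 6232 regions compared over 10 libraries and are given as a description. The points of each such correlation are the same 10 libraries, which differ in list size and have unknown depth.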

How the data were processed

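The authors trimmed and aligned reads of each ATAC-seq library to mm10, kept uniquely placed reads and called peaks with MACS2 per library without a fragment model. The submitters' processing notes name Bowtie 1.0.0 and Picard, and the study's methods name Bowtie2, so the aligner is unsettled. The deposited lists give 1-bp summits and a score, −log10 of the q-value (lowest 1.30), with no counts, widths or depth. No shift for the Tn5 cut is stated.

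Groups and replicate numbers came from the sample titles. The members, gene lists and tests were chosen with earlier results of these data known. All 18 regions, the 6 genes, the listed genes and the 3 most alike regions are named. Some genes of the lists are not reported here and were left out of their counts. Summits on chromosomes 1 to 19, X and Y were extended by 250 bp and merged, and genes came from GENCODE M21. Stretches and motifs were read from the RefSeq copy of mm10, without patches or alternate loci. Ranks among the 6234 regions in all 10 libraries were turned into normal scores and fitted by time point in limma 3.58.1 without a replicate block, and Benjamini-Hochberg adjustment was over all of them at a threshold of 0.05. The fit was tested on simulated data. Shifts of 3 or 6 SD (the spread within groups) were added at 24 h to 100 regions each, chosen among those with a middling mean score. The simulated noise was normal, with the same SD in every region and nothing shared between libraries of the same replicate number. Recovery in the real data may therefore be lower. The fit recovered 20 of 100 at 3 SD and 83 of 100 at 6 SD, with 1 call outside them. Median estimates were 0.824 and 0.674 of the added shifts. A region that was not called may therefore still have changed. Relations with hours used 100000 permutations (two-sided, scipy 1.17.1).

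Same-numbered libraries deviated together: replicate 1 minus replicate 2 correlated between groups with r of 0.18 to 0.36 in 10 of 10 pairs of time points, so a fit with the numbers as a replicate block, and hours permuted within them, were run beside the unpaired main tests. Other alternatives were different extensions, lists of equal size, higher scores, regions in at least 5 libraries, quantile-normalized log2 scores, and each library left out.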

Additional observations from a re-analysis of the deposited data

How the results depend on the processing

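The replicate block changed no call: limma called 0 window regions at every time point under every alternative run, and hours permuted within replicate numbers passed no threshold. Calls by presence were less stable. Lists of equal size (10698 peaks) formed 20279 regions, 13 of them in the window. The window then had 1 region lost at 2 h (446 of all regions), 0 gained at 12 h (430) and 0 gained at 24 h (539). With scores of at least 3 it had 1 of 17 gained at 2 h, against 727 of all 26479. Leaving out 1 library at a time gave 3 to 4 gained at 2 h, 1 to 4 at 6 h, 1 to 5 at 12 h and 1 to 3 at 24 h, and 0 to 1 lost at 2 h, 0 to 1 at 6 h and 0 to 2 at 12 h. The lost region at 24 h stayed at 1 in every such setting. With 1 library left out the rule asks for fewer libraries, so counts can only stay or rise. No share of all regions was computed for those counts. The cause of the changes with lists of equal size and with higher scores was not tested.

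The relation of summits with hours had no clear direction. Its r was 0.0193 in the main lists and -0.0309 with lists of equal size, where rho stayed positive (0.0775). Without single libraries its r ran from -0.206 to 0.309 and its rho from -0.137 to 0.389. The difference between alpha-globin and beta-globin had r of 0.00477 to 0.688 and rho of 0.17 to 0.729. It was past the threshold only without 24 h replicate 1, with no adjustment for the number of settings. Each region alone, an alternative chosen after seeing the data, gave r of 0.0899 (30.6 kb region) and 0.174 (Snrnp25 promoter). The share of unique stretches at 36 bases was 12.4% at Hba-a1, 6.99% at Hba-a2, 59.8% at Hbq1a and 60.6% at Hbq1b. Depth is unknown and limits every call.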
